A study of Drosophila melanogaster with 20 samples.

Results

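The Polycomb group genes described here are Pc, Psc, Scm, E(z), esc and Su(z)12 of Drosophila melanogaster. Each was read by 1 probe set whose only annotated gene symbol was that gene, which was the rule for taking a gene in. The rule was applied to 10 listed genes and found 6, among 13402 genes with a probe set of a single symbol. The other listed genes, ph-p, ph-d, Su(z)2 and pho, were not analysed here.

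Polycomb group proteins keep developmental genes silent once a cell has taken on an identity. They work as chromatin complexes: Polycomb repressive complex PRC2 methylates histone H3, and PRC1 binds the marked chromatin, modifies histone H2A and compacts it. In the wing disc, the larval epithelium that forms the adult wing and notum, their best known targets are the Hox genes, selector genes of segment and compartment identity, and genes of the JAK/STAT ligands. DNA-binding factors, among them the GAGA-type proteins Pipsqueak (psq) and Trithorax-like (Trl), take part in bringing the complexes to their sites.

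The study measured total RNA of wing discs and wing disc tumors on Affymetrix arrays, with about 20 pairs of discs pooled per sample. All 5 groups carried EGFR, the epidermal growth factor receptor, and no group without it was among the samples used here. EGFR alone was sampled at 12 hr (controls, 4 arrays) and at day 4 (early hyperplastic tumors, 3 arrays used). EGFR combined with psqRNAi, RNA interference against psq, was sampled at 12 hr (controls), at day 4 (early hyperplastic tumors) and at day 11 of tumor growth (late neoplastic tumors), with 4 arrays each. Replicates were labelled as biological. The driver of the transgenes, and the cells of the disc that carry them, are not given in the sources used here. Replicate 1 of the EGFR day 4 group was set aside by the submitters for technical problems and enters no value below except where it is named. Levels are deposited log2 values, so a difference of 1 is a doubling.

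The arrays were first set against the targeted gene and against markers of tissues that could be carried along. At 12 hr the psq level was 10.87 ± 0.05 (SD, n = 4) with EGFR alone and 10.78 ± 0.14 (SD, n = 4) with psqRNAi, a difference of -0.09 ± 0.09 (SE) that did not pass the test. At day 4 it was 11.15 ± 0.05 (SD, n = 3) without and 10.70 ± 0.18 (SD, n = 4) with psqRNAi, and psq fell by 0.45 ± 0.10 on the log2 scale (limma, adjusted p = 0.0163). That call was lost without EGFR day 4 replicate 3 or 4 (adjusted p of 0.0862 and 0.0566) and with the set-aside replicate 1 kept (adjusted p = 0.375). It was also lost with only the 2 groups compared in the limma fit (adjusted p = 0.163). All 8 wing disc markers were measured, and their mean level was 10.15 to 10.45 on the 12 hr arrays. In day 11 tumors it was 9.17, 9.45, 9.42 and 10.05 on replicates 1 to 4. These markers did not all move alike. With psqRNAi the pnr mean was 8.99 at 12 hr and 9.45 at day 11, and the ap mean was 10.22 and 10.12. The means of nub, vg, rn, zfh2, salm and bi were lower at day 11. The mean of 10 haemocyte markers was 8.37 to 8.80 on the 12 hr arrays, and 10.28, 10.21, 10.14 and 8.54 in day 11 tumors. Day 11 replicate 4 thus stood apart from the other day 11 arrays on both lists. It also had a level of 7.87 for the male-specific RNA roX1, against at least 12.05 on the other 18 arrays. The day 11 values are given with this array, and those against 12 hr also without it for each member and for the listed genes whose change is given. Fat body markers (4 measured) averaged 11.91 to 12.77 in EGFR+psqRNAi 12 hr discs and 10.02 to 10.42 on the 4 day 11 arrays, so that these groups did not overlap. The 8 salivary gland markers averaged 8.34 to 11.56 and 5.76 to 8.40 in the same groups, which overlapped. The 5 neuron and glia markers averaged 6.97 to 7.18 and 7.38 to 7.71, without overlap. Of these, Cadps had means of 6.97 and 9.21, while elav and nSyb had lower means at day 11. For trachea, btl had 6.96 to 7.18 and 6.59 to 6.90. The mean of 5 muscle and myoblast markers overlapped. In it, twi had means of 9.99 and 11.02, Him 7.31 and 8.29, zfh1 9.03 and 9.92, Mlc2 11.57 and 11.78, and up 9.06 and 7.14.

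No Polycomb group member passed the test in any of 7 comparisons. The 42 tests, 6 members in each comparison, gave 0 calls at an adjusted p of 0.05 in limma and 7 at an unadjusted p of 0.05. Of all genes, 15.6% to 33% had an unadjusted p below 0.05 in these comparisons. In the 36 tests between 2 groups, the largest difference was 1.20-fold and the 95% confidence intervals lay between -0.51 and 0.48 on the log2 scale. The means of the 5 groups spanned 0.17 for Pc and E(z), 0.21 for esc, 0.23 for Scm, 0.27 for Su(z)12 and 0.39 for Psc, around a median span of 0.26 over all genes. In these pooled discs, fewer cells of a type and less RNA per cell cannot be told apart.

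**Figure D1:**
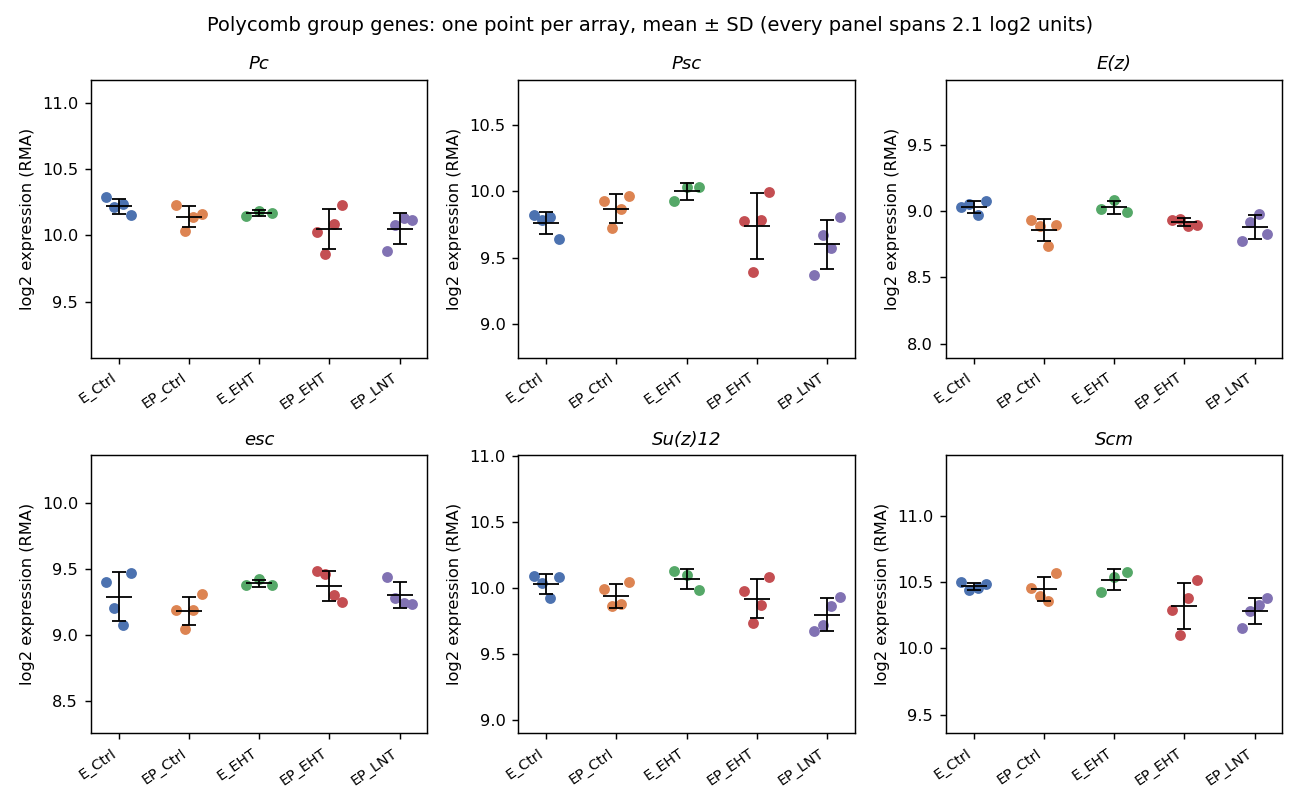
Level of each Polycomb group gene (log2, deposited values) on each of the 19 arrays by group, with the group mean and SD. For all 6 genes the group means lie within 0.39 of each other, and the arrays of most groups overlap.

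Pc encodes the PRC1 subunit whose chromodomain binds methylated histone H3. With EGFR alone its level was 10.22 ± 0.06 (SD, n = 4) at 12 hr, with arrays at 10.29, 10.21, 10.24 and 10.16. In EGFR day 4 tumors it was 10.17 ± 0.02 (SD, n = 3), with arrays at 10.14, 10.18 and 10.17. These ranges overlapped. With psqRNAi the means were 10.14 ± 0.08 at 12 hr, 10.05 ± 0.15 at day 4 and 10.05 ± 0.12 at day 11 (SD, n = 4 each). The widest group was EGFR+psqRNAi at day 4, where replicate 2 had the lowest Pc level, 9.86, and replicate 4 the highest, 10.23. The order of the means was EGFR 12 hr, EGFR day 4, EGFR+psqRNAi 12 hr, day 11 and day 4, and neighbours in it overlapped.

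Psc, Posterior sex combs, encodes the PRC1 subunit that partners the ubiquitin ligase Sce and compacts chromatin. With EGFR alone its 12 hr arrays had levels of 9.82, 9.79, 9.81 and 9.64, and its day 4 arrays 9.92, 10.03 and 10.04. The day 4 arrays all lay above the 12 hr arrays, and 26.1% of all genes had these groups apart in either direction. With psqRNAi the levels were 9.93, 9.72, 9.87 and 9.97 at 12 hr, then 9.77, 9.39, 9.78 and 10 at day 4. Here the day 4 arrays spread on both sides of the 12 hr arrays, and day 4 replicate 2 was lowest. At day 11 the levels were 9.37, 9.67, 9.57 and 9.81, with 3 arrays under every EGFR+psqRNAi 12 hr array and replicate 4 within their range. Psc had the highest mean in EGFR day 4 tumors, 10 ± 0.06 (SD, n = 3), and the lowest in day 11 tumors, 9.60 ± 0.19 (SD, n = 4). Its span of 0.39 was at percentile 73.5 of all genes.

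Scm, Sex comb on midleg, encodes a SAM-domain protein that interacts with PRC1 and takes part in linking the complexes. Its level was 10.47 ± 0.03 and 10.45 ± 0.09 at 12 hr without and with psqRNAi (SD, n = 4 each). In EGFR day 4 tumors the arrays had levels of 10.43, 10.54 and 10.58. In EGFR+psqRNAi tumors they were at 10.29, 10.10, 10.38 and 10.51 at day 4. Of these, only replicate 4 lay within the range of the EGFR day 4 arrays. At day 11 the Scm levels were 10.15, 10.28, 10.33 and 10.38, reaching just above the lowest EGFR+psqRNAi 12 hr array, 10.36.

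E(z), Enhancer of zeste, encodes the PRC2 methyltransferase. At 12 hr its arrays had levels of 9.03, 9.06, 8.97 and 9.08 with EGFR alone, and 8.93, 8.89, 8.74 and 8.90 with psqRNAi. At day 4 they had 9.02, 9.09 and 8.99 with EGFR alone, and 8.94, 8.94, 8.89 and 8.90 with psqRNAi. The genotypes did not overlap at either time: each array with EGFR alone lay above each psqRNAi array of the same age. Of all genes, 11.7% were apart between the genotypes at 12 hr and 13.9% at day 4, in either direction. At day 11 the E(z) levels were 8.77, 8.92, 8.98 and 8.83, with a mean of 8.88 ± 0.09 (SD, n = 4) close to those of the other psqRNAi groups, 8.86 ± 0.08 at 12 hr and 8.92 ± 0.03 at day 4 (SD, n = 4 each).

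esc, extra sexcombs, encodes the WD-repeat subunit through which PRC2 reads methylated histone H3. Its levels at 12 hr were 9.40, 9.20, 9.07 and 9.47 with EGFR alone, and 9.19, 9.04, 9.19 and 9.31 with psqRNAi. The first of these groups spread most among the esc groups, with an SD of 0.18. At day 4 esc had a mean of 9.39 ± 0.03 (SD, n = 3) with EGFR alone and 9.37 ± 0.11 (SD, n = 4) with psqRNAi, and at day 11 it had 9.30 ± 0.10 (SD, n = 4). esc was lowest in EGFR+psqRNAi 12 hr discs, a place that E(z) shared, and highest in EGFR day 4 tumors.

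Su(z)12, Suppressor of zeste 12, encodes the PRC2 subunit that holds the core of the complex together. Its level was 10.03 ± 0.08 (SD, n = 4) at 12 hr and 10.07 ± 0.07 (SD, n = 3) at day 4 with EGFR alone. With psqRNAi it was 9.94 ± 0.09 at 12 hr, 9.92 ± 0.15 at day 4 and 9.80 ± 0.12 at day 11 (SD, n = 4 each). The day 11 arrays had 9.67, 9.72, 9.87 and 9.93, and the EGFR+psqRNAi 12 hr arrays 10, 9.87, 9.88 and 10.04, so that these groups overlapped. Su(z)12 and Scm had the same order of group means: EGFR day 4, EGFR 12 hr, then the psqRNAi groups at 12 hr, day 4 and day 11.

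The set-aside replicate 1 of the EGFR day 4 group had lower levels of all 6 genes than any other array of its group. Its levels were 9.67 for Pc, 9.27 for Psc, 10.04 for Scm, 8.74 for E(z), 9.21 for esc and 9.67 for Su(z)12. The gaps to the next array ran from 0.16 for esc to 0.65 for Psc.

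The comparison of genotypes at 12 hr asked what psqRNAi adds in EGFR discs before tumors. None of the 6 members was called, and 2.43% of all genes were, 0.664% higher and 1.76% lower. E(z) had the largest difference, -0.17 ± 0.05 (SE), with a 95% confidence interval of -0.28 to -0.06 and an unadjusted p of 0.00597, and it missed the threshold over all genes (limma, adjusted p = 0.118). It was the 1 member whose groups did not overlap, which 11.7% of all genes shared. With arrays weighted by their quality, E(z) was called (difference -0.18, limma, adjusted p = 0.0456). The other members differed by -0.10 for esc to 0.11 for Psc, with adjusted p of 0.608 to 0.905. Psc was the 1 member with a higher mean in psqRNAi discs. The median difference was -0.09 over the members and 0.00 over all genes.

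At day 4, the comparison asked how hyperplastic tumors with and without psqRNAi differ, and all 6 members had lower means with psqRNAi. None was called, against 3.17% of all genes (2.39% higher and 0.783% lower). Psc differed by -0.26 ± 0.12 (SE), with an unadjusted p of 0.0409 and an adjusted p of 0.26. Scm differed by -0.19 ± 0.08 (SE), with an unadjusted p of 0.0315 and an adjusted p of 0.231. Both rest on groups of unlike spread, since Psc had an SD of 0.25 in EGFR+psqRNAi tumors and of 0.06 in EGFR tumors. E(z) differed by -0.12 ± 0.06 (SE, adjusted p = 0.325) and was again the 1 member whose groups did not overlap, as for 13.9% of all genes. Pc, esc and Su(z)12 differed by -0.11, -0.02 and -0.15, with adjusted p of 0.484, 0.941 and 0.382. The median was -0.13 over the members and -0.01 over all genes. For lists described below it was -0.21 (other Polycomb group proteins), -0.23 (recruiters) and -0.18 (Trithorax group). Under the alternative settings the difference reached 0.01 for Pc and 0.02 for esc, so that the lower means of these genes did not always hold.

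E(z) lay lower with psqRNAi at both times, which led to a comparison added after those values were seen: the mean of the genotype differences at 12 hr and day 4 in the same fit. For E(z) it was -0.14 ± 0.04 (SE), with a 95% confidence interval of -0.23 to -0.06, an unadjusted p of 0.00229 and an adjusted p of 0.0514 over all genes (limma). E(z) was lower on 8 of 8 psqRNAi arrays than on every EGFR array of the same age, the pattern that prompted this comparison. The genotypes did not overlap for 11.7% of all genes at 12 hr and for 13.9% at day 4. The share of genes apart at both times was not determined. The adjusted p of E(z) ranged from 0.0182 to 0.348 over the alternatives. E(z) passed the threshold with dim genes removed, with array weights and with 2 other settings, and without EGFR 12 hr replicate 3 (adjusted p = 0.0464). The adjusted p was 0.348 with the set-aside EGFR day 4 replicate 1 kept. The other 5 members had -0.12 to -0.06, with adjusted p of 0.313 to 0.706. In this comparison 4.41% of all genes were called, 2.13% higher and 2.28% lower, and 0 of the 6 members. The test uses the arrays that prompted it.

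**Figure D2:**
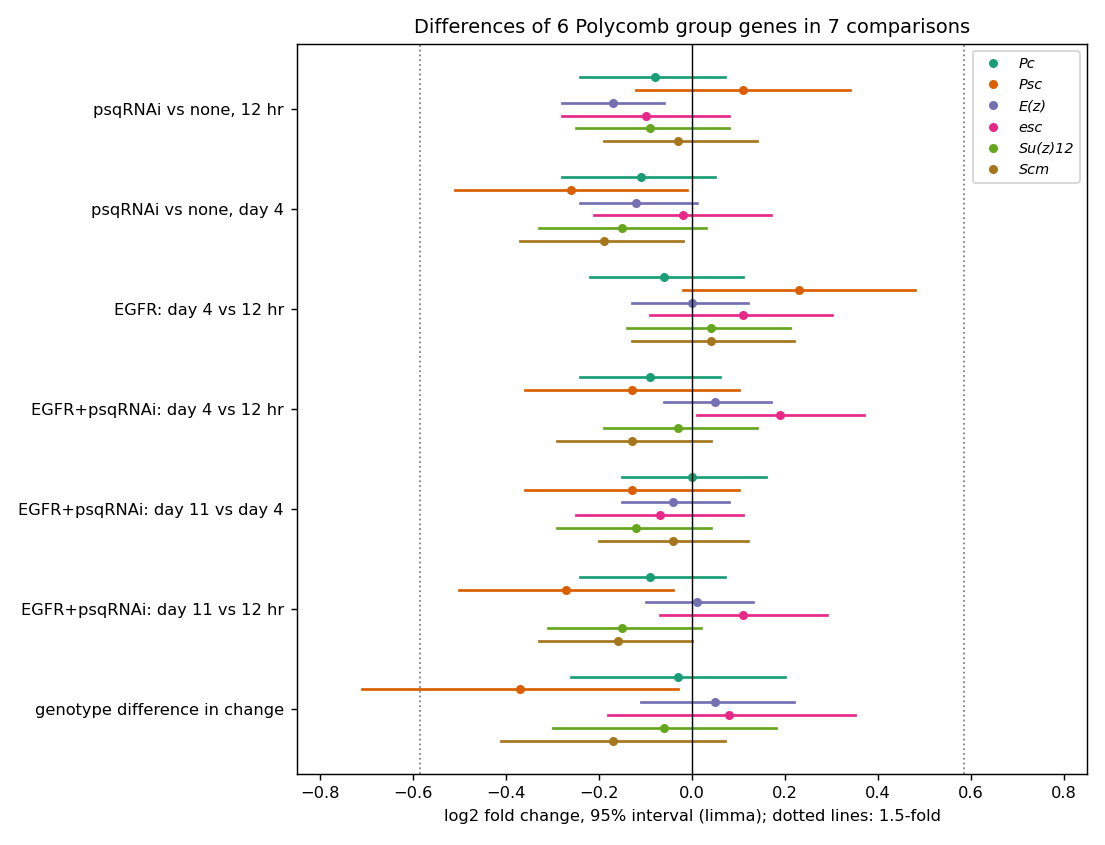
Difference of each Polycomb group gene (log2) in each comparison, with its 95% confidence interval from the limma fit. In the 6 comparisons between 2 groups every interval lies within -0.51 to 0.48, and the intervals are widest for Psc.

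Over time with EGFR alone, from 12 hr to day 4, no member was called, against 6.58% of all genes (1.97% higher and 4.61% lower). Psc had the largest difference, 0.23 ± 0.12 (SE, adjusted p = 0.248), with an interval of -0.02 to 0.48. Its groups did not overlap, as for 26.1% of all genes. esc differed by 0.11, and Pc, E(z), Su(z)12 and Scm by -0.06 to 0.04, with adjusted p of 0.54 to 0.986. The members' median was 0.04 and that of all genes 0.02.

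With psqRNAi, from 12 hr to day 4, none of the 6 was called, against 4.72% of all genes (2.95% higher and 1.78% lower). esc had the largest difference, 0.19 ± 0.09 (SE), with an interval of 0.01 to 0.37, an unadjusted p of 0.0418 and an adjusted p of 0.262. Psc and Scm both differed by -0.13, with adjusted p of 0.606 and 0.446, and the remaining members by -0.09 to 0.05. Psc thus had a higher mean at day 4 than at 12 hr with EGFR alone and a lower one with psqRNAi. The difference between these changes was -0.37 ± 0.16 (SE) for Psc, with an interval of -0.71 to -0.03, an unadjusted p of 0.0353 and an adjusted p of 0.269. This test of the genotype difference in the change called 0 of the 6 members and 0% of all genes (limma), with 2177 of 13402 genes at an unadjusted p of 0.05. The other members had values of -0.17 to 0.08 in it, and adjusted p of 0.467 to 0.913.

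The comparison of day 11 with day 4 under psqRNAi set late neoplastic tumors against early hyperplastic tumors. Age and tumor stage differ together in both day 11 comparisons, and no day 11 group with EGFR alone was sampled. The parts of age and stage, and any dependence on psqRNAi, cannot be told apart in them. No member was called, against 6.99% of all genes (4.49% higher and 2.5% lower), and none had an unadjusted p below 0.05. All 6 had differences between -0.13 and 0.00, with adjusted p of 0.427 to 0.992. The intervals ran from -0.36 to 0.10 for Psc and from -0.15 to 0.16 for Pc. Without day 11 replicate 4 the differences were -0.20 to -0.02, again with 0 called.

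Between day 11 tumors and 12 hr discs, both with psqRNAi, 22.1% of all genes were called (12.1% higher and 10% lower) and none of the 6 members was. Psc differed by -0.27 ± 0.11 (SE), a 1.20-fold lower level, with an interval of -0.50 to -0.04, an unadjusted p of 0.0256 and an adjusted p of 0.0925. Without day 11 replicate 4, the array that stood apart, Psc fell by 0.34 (limma, adjusted p = 0.0371), and with arrays weighted by quality by 0.27 (limma, adjusted p = 0.0145). Over all alternatives its adjusted p in this comparison ranged from 0.0145 to 0.281. Scm differed by -0.16 ± 0.08 (SE), with an unadjusted p of 0.0486 and an adjusted p of 0.149. Su(z)12 differed by -0.15 (adjusted p = 0.204), Pc by -0.09 (adjusted p = 0.458), E(z) by 0.01 (adjusted p = 0.909) and esc by 0.11 (adjusted p = 0.394). Without replicate 4 these differences were -0.20 for Scm, -0.19 for Su(z)12, -0.11 for Pc, 0.03 for E(z) and 0.14 for esc, with adjusted p of 0.10 to 0.798. The median was -0.12 over the members and 0.01 over all genes. In the same arrays the mean of the wing disc markers was lower on all 4 day 11 arrays than on any 12 hr array, with replicate 4 nearest. The mean of the haemocyte markers was higher than on any 12 hr array on day 11 replicates 1 to 3 only. Of the wing disc list, pnr had a higher mean at day 11, as given above. The fat body mean was lower, and the neuron and glia mean higher, on all 4 day 11 arrays than in EGFR+psqRNAi 12 hr discs. Other tissue markers also differed, as given above. The part of these tissues in the members' values was not tested.

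Across arrays of one group, 4 of the members moved together. Each level was taken as its deviation from its group mean on the 19 arrays. The pair Pc and Psc had r = 0.91 and rho = 0.82 (permutation within groups, adjusted p = 0.0059 for r and 0.0079 for rho over 33 relations). For Psc and Scm, r was 0.86 and rho 0.76, with adjusted permutation p of 0.008 and 0.016. For Pc and Scm, r was 0.83 and rho 0.78, with adjusted permutation p of 0.016 for both. The 3 pairs of Su(z)12 with these genes had r of 0.69 to 0.73, with adjusted permutation p of 0.04 to 0.056 for r and 0.099 to 0.17 for rho. By contrast, the 9 pairs that include E(z) or esc had r of -0.38 to 0.31, with adjusted permutation p of 0.38 to 0.97. Between 0.194% (Psc) and 2.42% (Scm) of all genes had an r with Pc as high as these genes had. That share was 3.11% for Scm with Psc, and 4.86% to 9.92% for the pairs with Su(z)12. Two-sided tests were used throughout. The group of 4 was picked after its values were seen, and the same arrays were then tested.

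EGFR+psqRNAi day 4 replicate 2 and day 11 replicate 1 were the arrays farthest from the median for Pc, Psc and Su(z)12. Without them r was 0.82 for Pc and Psc, 0.73 for Psc and Scm and 0.69 for Pc and Scm, and 0.48 to 0.56 for the pairs with Su(z)12. On day 4 replicate 2 the deviation was -0.19 for Pc, -0.34 for Psc, -0.22 for Scm and -0.18 for Su(z)12. On day 4 replicate 4 it was 0.18, 0.26, 0.19 and 0.17 for the same genes. The spread of these genes within EGFR+psqRNAi day 4 tumors thus lay mostly between these arrays, while E(z) deviated by at most 0.03 on any array of that group. The quality weights were 0.388 and 0.438 for day 4 replicates 2 and 4, and 0.623 and 0.413 for day 11 replicates 1 and 4. These were the lowest of the 19 arrays. No correlation was taken without all of them, and the part of array quality was not tested.

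**Figure D3:**
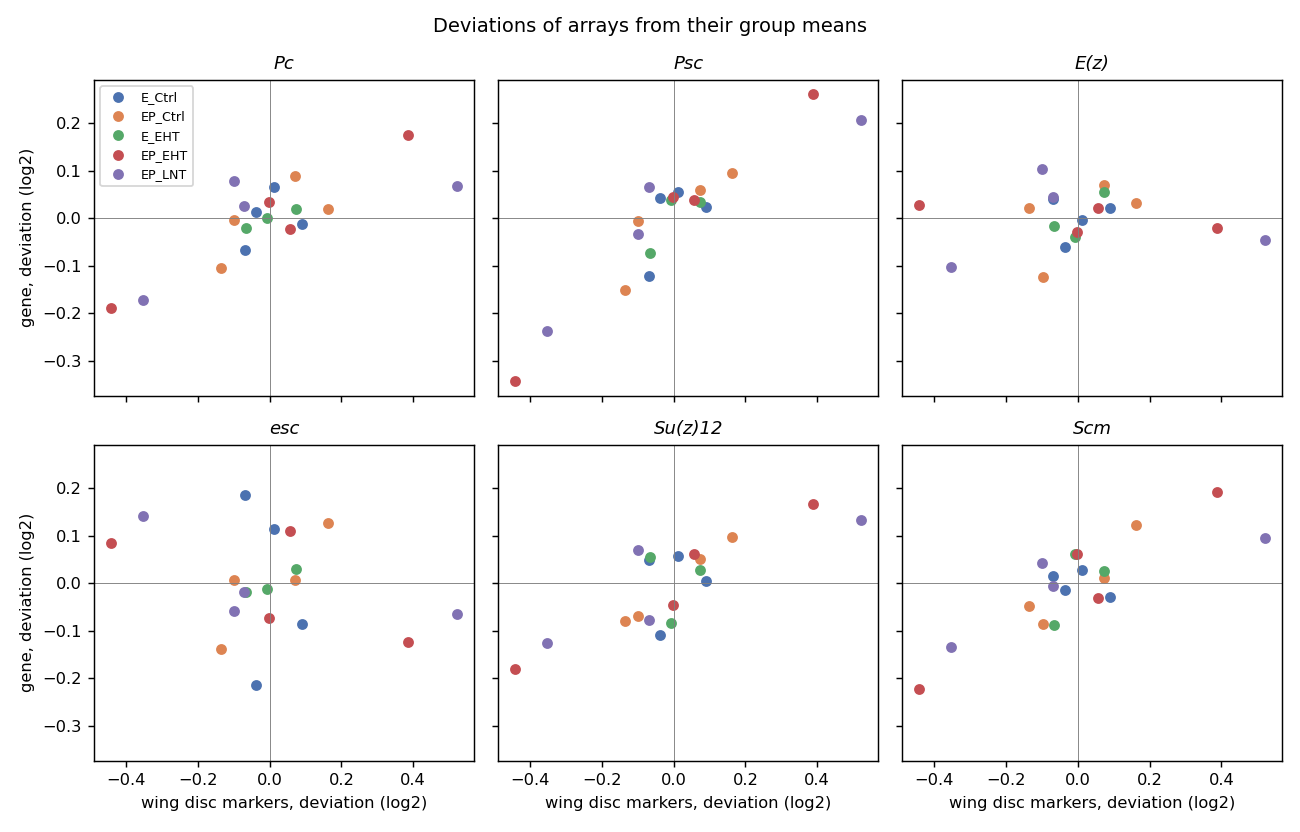
Deviation of each array from its group mean (log2) for Polycomb group genes and for the mean of the wing disc markers, 19 arrays. Pc, Psc, Scm and Su(z)12 are low together on EGFR+psqRNAi day 4 replicate 2 and high together on its replicate 4, and so is the marker mean.

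The mean level of the 8 wing disc markers moved with the same 4 genes. Its deviations had r = 0.91 and rho = 0.78 with Psc (adjusted permutation p = 0.002 and 0.016), r = 0.83 with Scm, 0.81 with Su(z)12 and 0.78 with Pc (adjusted permutation p = 0.0099, 0.008 and 0.048). With Pc the rank correlation was 0.59, and its adjusted permutation p was 0.13. Without the 2 arrays farthest from the marker median, these r values were 0.73 to 0.90. Between 1.17% and 6.45% of all genes had an r with the marker mean as high as these. The marker mean had r = 0.03 with E(z) and -0.30 with esc. In EGFR+psqRNAi day 4 tumors the marker mean was 10.05, 9.55, 9.99 and 10.38 on replicates 1 to 4. With haemocyte markers the 4 genes had r of -0.51 to -0.31 (adjusted permutation p of 0.29 to 0.59), and with salivary gland markers the 6 genes had r of -0.24 to -0.03. The parts of tissue content and of array quality in these relations were not tested.

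Genes that work beside the 6 members were read from lists of other Polycomb group proteins, recruiters, Trithorax group genes and known targets. These lists were chosen with earlier results of these data known. Their shares beside all genes are therefore a description and not a test. Of 12 other Polycomb group proteins measured, 1 fell at 12 hr with psqRNAi, a share of 8.33% beside 2.43% of all genes. This was escl, a paralog of esc, which fell by 0.21 ± 0.05 (SE, adjusted p = 0.048). That call was lost without any single array of the groups compared except EGFR+psqRNAi replicate 2, with adjusted p of 0.0629 to 0.176, and with a further quantile normalization (difference -0.16, adjusted p = 0.183). By day 11 against 12 hr, 3 of the 12 fell and 9 were not called, beside 10% of all genes lower and 12.1% higher. The PRC2 accessory genes jing and Jarid2 fell by 0.64 ± 0.17 and 0.34 ± 0.10 (SE, adjusted p = 0.0126 and 0.0209), and Sfmbt, a partner of pho, by 0.18 ± 0.06 (SE, adjusted p = 0.0477). The 3 of 12 called are a share of 25%, close to the 22.1% of all genes. The count became 0 to 4 when each array was left out. Without day 11 replicate 4, jing fell by 0.80, Jarid2 by 0.41 and Sfmbt by 0.20 (adjusted p = 0.00149, 0.00777 and 0.0381). Without day 11 replicate 1, jing had -0.50 (adjusted p = 0.05) and Jarid2 -0.27 (adjusted p = 0.0786). Jarid2 was also lost without EGFR+psqRNAi 12 hr replicate 1 or 4 (adjusted p of 0.0588 and 0.0605), and Sfmbt without 12 hr replicates 1, 3 or 4 or day 11 replicates 1, 2 or 3 (adjusted p of 0.0553 to 0.162).

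Of 6 recruiters measured, 4 fell and 1 rose by day 11 against 12 hr, with a list median of -0.26, where 10% of all genes were lower and 12.1% higher. Among those that fell was psq, the target of the RNAi in both groups. The count of 5 called became 2 to 5 when each array was left out and 2 to 5 under the alternatives. It was 5 without day 11 replicate 4. grh, grainy head, an epithelial transcription factor, had levels of 10.62, 10.37, 10.54 and 10.80 in EGFR+psqRNAi 12 hr discs and 9.50, 9.67, 9.64 and 10.33 in day 11 tumors. All day 11 arrays lay below all 12 hr arrays, replicate 4 nearest, and grh fell by 0.80 ± 0.17 (SE, 1.74-fold, adjusted p = 0.00215). Trl, the GAGA factor, had levels of 9.38, 9.34, 9.29 and 9.54 at 12 hr and 8.85, 9.05, 8.99 and 9.08 at day 11. These groups did not overlap either, as for 23.9% of all genes, and Trl fell by 0.40 ± 0.09 (SE, 1.32-fold, adjusted p = 0.00267). With day 11 replicate 4 left out, grh fell by 0.98 and Trl by 0.42 (adjusted p = 7.47e-05 and 0.00279). The calls of grh and Trl held under all alternatives and left-out arrays tried. Markers of several tissues, among them wing disc, haemocytes, fat body and myoblasts, differed between the same groups, as given above. Their part in these values was not tested.

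The remaining recruiters were called with less margin. z, zeste, fell by 0.26 ± 0.07 (SE, adjusted p = 0.0141) and psq by 0.26 ± 0.09 (SE, adjusted p = 0.0474), while lolal, a BTB protein that binds both Trl and psq proteins, rose by 0.30 ± 0.09 (SE, adjusted p = 0.0307). The values were -0.34 for z, -0.30 for psq and 0.31 for lolal without day 11 replicate 4, all still called. Spps had -0.08 and was not called (adjusted p = 0.552). z was lost without 12 hr replicate 4 or day 11 replicates 1 or 2 (adjusted p of 0.0509 to 0.0528). psq was lost without 12 hr replicates 1, 3 or 4 or day 11 replicates 1, 2 or 3 (adjusted p of 0.0557 to 0.156). lolal was lost without 12 hr replicates 1, 2 or 3 or day 11 replicates 2 or 3 (adjusted p of 0.0561 to 0.116). Of the comparisons other than day 11 against 12 hr, psq was the 1 recruiter called, at day 4 and in the mean of the genotype differences.

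**Figure D4:**
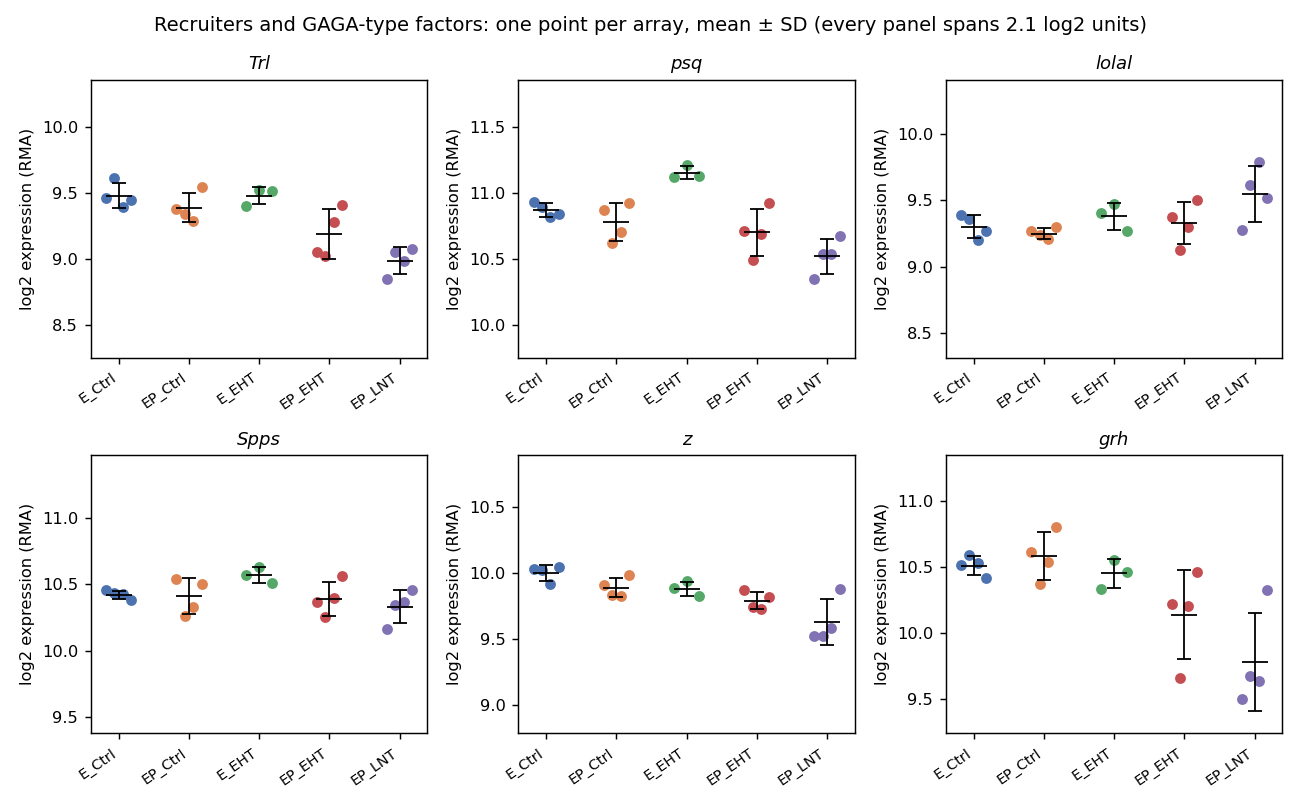
Level (log2, deposited values) of the measured recruiters and GAGA-type factors on each of the 19 arrays by group, with the group mean and SD. For grh and Trl the 4 day 11 arrays lie below the 4 EGFR+psqRNAi 12 hr arrays. These groups did not overlap for 23.9% of all genes.

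Trithorax group proteins oppose Polycomb silencing. Of 24 measured, 5 fell and 1 rose by day 11 against 12 hr, with a median of -0.17. Of all genes, 10% were lower and 12.1% higher. With both directions pooled, the 6 called are a share of 25%, close to the 22.1% of all genes. The count became 3 to 7 when each array was left out and 2 to 10 under the alternatives. It was lowest with arrays left out without EGFR+psqRNAi 12 hr replicate 1 or day 11 replicate 1. Mnn1, the fly menin, fell by 0.81 ± 0.14 (SE, adjusted p = 0.000375), and ash2, a subunit of histone methyltransferase complexes, rose by 0.34 ± 0.06 (SE, adjusted p = 0.00029). Both calls held under all alternatives and left-out arrays, and without day 11 replicate 4 the values were -0.92 and 0.37. The chromatin remodeller kis fell by 0.56 ± 0.18 (SE, adjusted p = 0.031) and the methyltransferase gene trr by 0.32 ± 0.10 (SE, adjusted p = 0.0289). kis was lost without 12 hr replicates 1, 3 or 4 or day 11 replicates 1, 2 or 3 (adjusted p of 0.0524 to 0.11), and trr without 12 hr replicates 1 or 4 or day 11 replicates 1 or 3 (adjusted p of 0.0756 to 0.107). From 12 hr to day 4 with psqRNAi, 1 of the 24 was called, a share of 4.17% beside 4.72% of all genes. This was Mnn1, which fell by 0.58 (adjusted p = 0.0224). That call was lost without 12 hr replicates 1 or 4 or day 4 replicate 2 (adjusted p of 0.0597 to 0.063).

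Of 45 known Polycomb targets measured, 11 rose, 16 fell and 18 were not called in this comparison, with a median of -0.09, where 12.1% of all genes were higher and 10% lower. The count of 27 called became 22 to 27 when each array was left out. The BTB transcription factor gene chinmo rose by 2.02 ± 0.21 (SE, 4.05-fold, adjusted p = 3.79e-06). The Hox genes Scr and Dfd rose by 1.5 ± 0.17 and 1.42 ± 0.13 (SE, adjusted p = 1.02e-05 and 9.27e-07). hh, the posterior compartment signal, fell by 1.31 ± 0.18 (SE, adjusted p = 5.69e-05). In 5 of the 45 (vg, ap, pnr, salm and bi) the target is also one of the wing disc markers. Without day 11 replicate 4, 25 targets were called, and the values were 2.20 for chinmo, 1.49 for Scr, 1.39 for Dfd and -1.57 for hh. Markers of several tissues, among them wing disc, haemocytes, fat body and myoblasts, differed between these groups too. Their part in the target values was not tested.

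The targets also gave calls at earlier steps, with the 6 members called in none of them. With EGFR alone, 3 targets rose and 1 fell from 12 hr to day 4, a share of 8.89% called beside 6.58% of all genes, among them chinmo by 1.56 ± 0.23 and Dfd by 0.99 ± 0.14 (SE, adjusted p = 0.00137 and 0.00104). With psqRNAi over the same time, 5 rose and 3 fell (17.8% called, beside 4.72% of all genes), chinmo by 1.79 ± 0.21 and Dfd by 1.60 ± 0.13 (SE, adjusted p = 0.000132 and 4.38e-06). From day 4 to day 11, 4 rose, Scr by 1.43 ± 0.17, and 9 fell, hh by 0.92 ± 0.18 (SE, adjusted p = 0.000137 and 0.00423), a share of 28.9% called beside 6.99% of all genes. Leaving out day 11 replicate 4 gave 1.42 for Scr, -1.18 for hh and 15 called targets. These counts moved with single arrays, over 3 to 6, 3 to 15 and 6 to 15 called targets when each array was left out in turn. With psqRNAi from 12 hr to day 4 it was 15 without day 4 replicate 4 and 3 without 12 hr replicates 1 or 4 or day 4 replicate 2. From day 4 to day 11 it was 8, 6 and 8 without day 11 replicates 1, 2 and 3. Under the alternatives these counts were 4 to 12, 3 to 14 and 1 to 17. The count over all genes from day 4 to day 11 was 252 to 1773 under the same alternatives. With only the groups compared in the fit, hh missed the threshold at that step (limma, adjusted p = 0.116), and Scr kept its call. Between the genotypes 0 of the 45 were called by limma at 12 hr, at day 4 or in the difference of the changes. At day 4 that count became 0 to 4 under the alternatives.

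Of 14 cell cycle genes measured, 2 were called lower with psqRNAi at 12 hr and 2 higher by day 11 against 12 hr. That is 14.3% in both, beside 2.43% and 22.1% of all genes. Another 1 was called at each of 2 steps with psqRNAi, Mcm2 higher at day 4 against 12 hr and Mcm3 lower at day 11 against day 4. At each step that is 7.14%, beside 4.72% and 6.99% of all genes. aurB, a mitotic kinase, fell at 12 hr by 0.49 ± 0.10 (SE, adjusted p = 0.00976), and its call held when each array was left out. The others, Mcm3 at 12 hr and Mcm2 and RnrL at day 11, were each lost without some single arrays. Mcm3 was lost without EGFR 12 hr replicates 1 or 4 or EGFR+psqRNAi 12 hr replicates 2 or 3 (adjusted p of 0.0653 to 0.101).

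**Figure D5:**
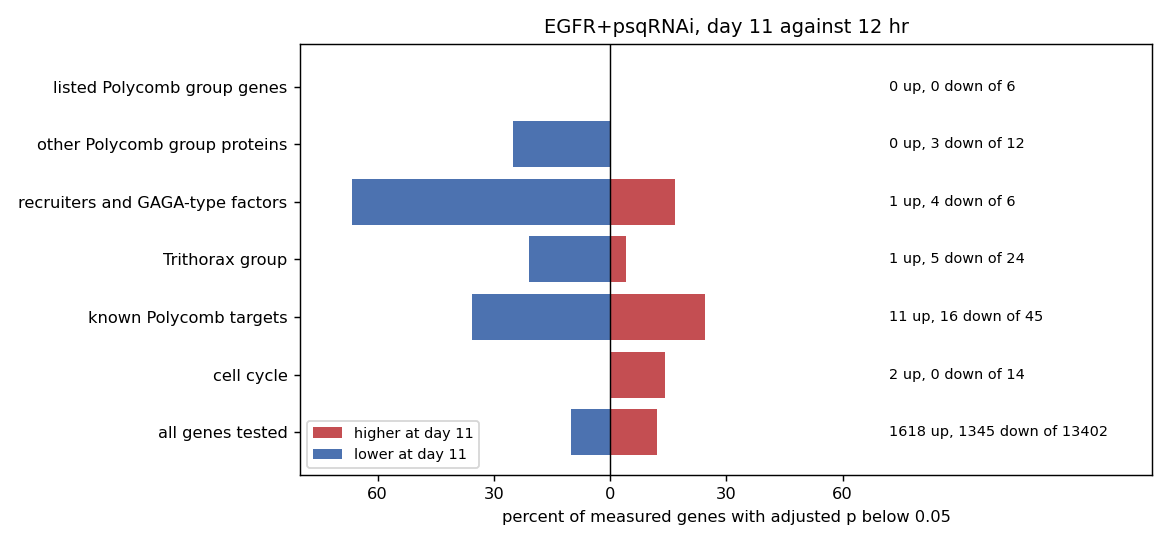
Genes called higher (right) and lower (left) in day 11 tumors against 12 hr discs with psqRNAi, as a percentage of the genes measured in each list and of all 13402 genes. None of the 6 Polycomb group members is called, 5 of 6 recruiters and 27 of 45 known targets are, beside 22.1% of all genes. The called recruiters include psq, the target of the RNAi. The lists were chosen with earlier results of these data known.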

How the data were processed

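The authors deposited 1 table of log2 values per probe set. The submitters' processing notes name RMA and limma. The background settings and versions are not given in the sources used here. The values of the 19 arrays used ran from 2.67 to 14.19. The table held no column outside the 20 arrays. Probe sets were named through the platform annotation. Of 16322, 13441 had 1 symbol, 555 several and 2326 none, and the probe set of highest mean stood for each of 13402 genes. One linear model with a mean per group was fitted with limma 3.58.1 in R 4.3.3 (lmFit, eBayes), with Benjamini-Hochberg adjustment over all 13402 genes and a threshold of 0.05. It had 14 residual degrees of freedom, and the number of arrays limits precision: the median standard error was 0.0929 between groups of 4. Relations between genes were tested with 100000 permutations within groups. Of each list, the genes with the largest called changes (up to 4 per comparison) could be named, and every member, recruiter and other Polycomb group protein. No member's group means spanned 0.5 or more, so no genes of like pattern were named. The members and lists were chosen with earlier results of these data known. The alternatives changed normalization, filtering, variance model, array weights, probe sets, samples and pairing, and left out each array. The script was tested on simulated data.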

Additional observations from a re-analysis of the deposited data

How the results depend on the processing

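Over 9 alternative settings and 19 arrays left out in turn, 741 of 744 member values kept their side of the threshold and 3 gained a call. With array weights, 1 member was called in place of 0 at 12 hr (E(z)) and 1 at day 11 against 12 hr (Psc). Leaving out single arrays gave 0 to 1 members called at day 11 against 12 hr, the 1 being Psc without day 11 replicate 4. For psqRNAi averaged over both times, a comparison chosen after the values were seen, 1 member (E(z)) was called with dim genes removed, with trended robust variance, with array weights and with only the groups compared, and 0 to 1 with an array left out. With the replicate block, 0 members were called in any comparison. The numbers do not pair the samples: at most 2 of 3 same-numbered pairs correlated above 0.1. With the set-aside array kept, jing, Jarid2, Sfmbt, psq and lolal missed the threshold at day 11 against 12 hr (adjusted p of 0.0719 to 0.266). The count over all genes moved more: 325 at 12 hr became 206 to 873, 425 at day 4 became 64 to 804, and 937 from day 4 to day 11 became 252 to 1773 under the alternatives. The cause was not tested. With 3 or 4 arrays per group, members' standard errors were 0.05 to 0.12 between groups, and the intervals given show which differences these arrays leave possible.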
